A study of Mus musculus with 48 samples.

Results

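The subunits of integrins and laminins were followed in mouse renal cortex after ischemia/reperfusion injury (IRI). Members were taken by symbol, as every gene annotated under a name for an integrin alpha or beta subunit or for a laminin alpha, beta or gamma chain. Of 39 annotated symbols, 34 had values, out of 14320 genes and unassigned transcripts in the data. They were 23 integrin subunits, of which 6 belong to leukocyte integrins, and 11 laminin chains. Itga11, Itgad, Itgae and Itgb2l had no value, and neither had Itgb1bp2, which matches the naming rule but encodes an integrin-binding muscle protein and not a subunit.

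The kidneys came from 24 male C57BL/6 mice aged 6 to 8 weeks. The left renal pedicle was clamped for 20 minutes (mild injury) or for 40 minutes (severe injury), and cortex of the clamped left kidney (IRI) and of the right kidney (self-control) was sequenced for day 1 or day 3. This gave 48 libraries in 8 groups of 6 kidneys, defined by ischemia time, day and kidney, with no transgene in any group. All mice were operated on under sodium pentobarbital. The labels give each self-control the day of its left kidney, whereas the methods describe removal of the right kidney before clamping. In any comparison with self-controls, the effects of ischemia, of surgery and of being left with a single kidney therefore cannot be told apart.

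Integrins are cell surface receptors made of an alpha and a beta subunit, and the pair decides which ligand is bound. Pairs that contain the beta-1, alpha-v or beta-4 chain anchor cells to laminin, collagen, fibronectin or other matrix proteins, while beta-2 and beta-7 pairs are found on leukocytes and bind adhesion molecules of endothelium and epithelium. Laminins are cross-shaped basement membrane proteins made of an alpha, a beta and a gamma chain, and in kidney they lie under tubules, vessels and the glomerular filter.

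Levels are given as FPKM (fragments scaled to transcript length and to library size), summed over the transcripts of a gene, and groups of 6 are given as the lowest, median and highest kidney. Differences are on the log2(FPKM + 0.01) scale with their SE, from limma fitted over all genes with adjustment by Benjamini and Hochberg. For genes with low levels that scale is unreliable. The added 0.01 shrinks some changes, while values listed at or near 0 can give differences larger than the mean levels would. "Rose" and "fell" are used only for called genes, meaning those that changed by a fold of 2 or more with an adjusted p below 0.05. Library sizes estimated from the spacing of low values ran from 9450000 to 16025000 read pairs (median 12537500). These estimates are rough. No member was listed at 0 in any library. Every transcript in the table reached 0.5 FPKM in at least 1 library. For Itgam (highest transcript value in self-controls 0.361 FPKM) and Itga2 (0.211 FPKM) only IRI kidneys did so, and these members thus had to be high in at least 1 IRI kidney to be in the table at all. The same holds for single transcripts of other members, among them Lamb3 and Itgb4. Tests of such members against self-controls, or between ischemia times, carry this selection.

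Several libraries stood apart from their group. Among 20-minute IRI kidneys at day 1, replicate 3 had the highest level of 21 of 34 members and replicate 6 the lowest level of 25. Replicate 6 had 1.49 FPKM of Havcr1, the kidney injury molecule of damaged proximal tubule, against 523 FPKM in replicate 3. Among 20-minute IRI kidneys at day 3, replicate 4 was the highest for 24 of 34 members and had 728 FPKM of Havcr1, against a group median of 15.7 FPKM. Among 40-minute IRI kidneys at day 1, replicate 6 was the highest for 13 members and had 171 FPKM of Havcr1, against a group median of 752 FPKM. Several member results that rest on these kidneys are given with and without them. Values of genes outside the members are given with all kidneys.

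In the 24 self-controls the median levels spanned from 77.5 FPKM for Itgb1, the beta chain shared by most matrix receptors, to 0.0999 FPKM for Itga2, an alpha chain of a collagen receptor. Itgb1 was followed by Itgb5 at 31.3 FPKM, Itgb6 at 31.2, the laminin chain Lamb1 at 28.1, Itgb8 at 26.7, Itga6 at 19.4 and Itga1 at 13.2. All self-controls had more Itgb1 (66.7 FPKM or more) than Itgb5 (36.2 or less), and from Itgb5 down to Itga1 the ranges of neighbors in this order overlapped. A median over 10 FPKM was found for 7 members, between 1 and 10 FPKM for 14, and under 1 FPKM for 13. The group under 1 FPKM held all 6 leukocyte subunits, of which Itgb2 was the most abundant at 0.926 FPKM.

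Ischemia of 40 minutes was followed by higher levels of many members, and ischemia of 20 minutes by few changes. At day 1 after 40-minute IRI, 17 of 34 members rose and 1 fell, beside 15.7% of all genes that rose and 7.39% that fell. At day 3, 15 rose and 2 fell, beside 15.3% and 5.98% of all genes. Itgam and Itga2, which are in the table only through IRI kidneys, are among those that rose at both days. At day 1 after 20-minute IRI, 1 of 34 rose and none fell, beside 1.19% and 0.442% of all genes, and limma gave an unadjusted p under 0.05 for 15 members and for 26.09% of all genes. At day 3, 2 rose and 1 fell, beside 2.34% and 1.73% of all genes, and limma gave an unadjusted p under 0.05 for 17 members and for 31.26% of all genes. The median log2 difference of the members was 0.50 at day 1 after 20-minute IRI (all genes 0.10), 0.89 at day 1 after 40-minute IRI (all genes 0.24), 0.09 at day 3 after 20-minute IRI (all genes 0.02) and 0.91 at day 3 after 40-minute IRI (all genes 0.16). The members' direction was thus mostly upward, as was the median of all genes after 40 minutes.

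IRI and self-control kidneys did not overlap for 6 members at day 1 after 20-minute IRI (all higher), beside 3.2% of all genes higher and 2.01% lower without overlap. At day 3 after 20-minute IRI they did not overlap for 7, of which 4 were higher and 3 lower, beside 4.86% and 5.43%. After 40-minute IRI they did not overlap for 19 members at day 1, all of them higher, beside 24.6% of all genes higher and 11.1% lower. At day 3 they did not overlap for 20, of which 18 were higher and 2 lower, beside 25.7% and 12.6%. The shift of all genes depended on scaling. After libraries were scaled to an equal median, the median of all genes at day 1 after 40-minute IRI went from 0.24 to 0.03 and the calls from 2244 higher and 1055 lower to 1749 and 1406. At day 1 after 20-minute IRI the calls went from 170 higher and 63 lower to 147 and 94. The cortex was sequenced in bulk, so that a change in the number of cells of a type and a change in RNA per cell cannot be told apart.

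**Figure D1:**
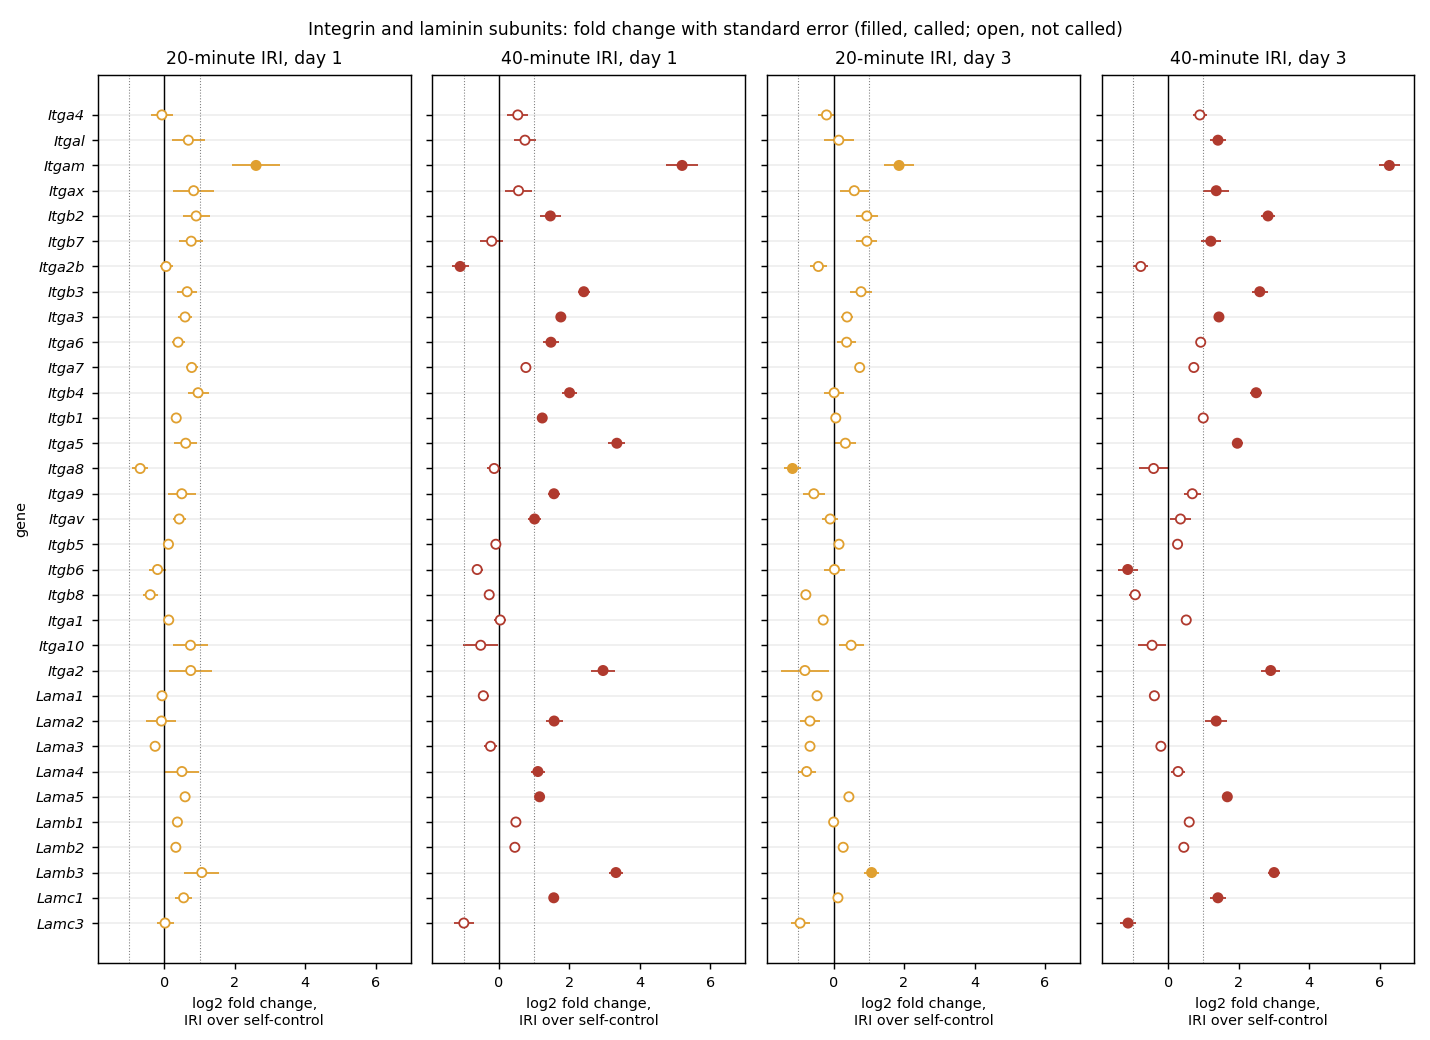
Log2 difference (FPKM + 0.01) between IRI and self-control kidneys with its SE for the members reported by name in the 4 comparisons. Filled points are called and dotted lines mark a fold of 2. The points after 40-minute IRI spread from -1.15 for Itgb6 to 6.28 for Itgam, and few points after 20-minute IRI are filled.

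Among the leukocyte subunits, and among all members at both days after 40-minute IRI, Itgam had the largest rise. It encodes the alpha-M chain (CD11b) of the complement receptor Mac-1 on neutrophils and macrophages. The gene lies on chromosome 7, chr7:128062640-128118491, plus strand (GRCm38). Its promoter is shown because the gene changed most, as 250 bases before to 50 after the start (chr7:128062390-128062689, plus strand, RefSeq, GRCm38.p6). Capitals mark GAGGAA on either strand, the core that the myeloid factor PU.1 binds.
Itgam: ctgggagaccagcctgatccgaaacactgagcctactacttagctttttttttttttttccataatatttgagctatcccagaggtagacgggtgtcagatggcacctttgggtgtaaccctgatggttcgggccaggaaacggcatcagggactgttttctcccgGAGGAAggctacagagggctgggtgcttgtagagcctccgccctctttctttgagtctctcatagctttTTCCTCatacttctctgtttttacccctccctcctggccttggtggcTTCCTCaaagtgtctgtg
That core occurred 3 times here, and at least once in 28.3% of 32851 promoters of 300 bases and in 13 of the 22 members that had a promoter entry.

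At day 1 after 40-minute IRI, Itgam had 2.07, 6.30 and 12.1 FPKM (lowest, median and highest), against 0.0705, 0.185 and 0.361 FPKM in self-controls. All IRI kidneys lay above all self-controls, and the level rose by 5.20 (SE 0.46, adjusted p = 9.99e-07, limma). At day 3 the IRI kidneys had 5.77, 11.6 and 15.4 FPKM and the self-controls 0.0704, 0.134 and 0.251 FPKM, again without overlap (6.28, SE 0.31, adjusted p = 6.81e-09, limma). In read pairs, the self-control medians were estimated at 5.8 to 9.7, so that the low side of these folds rests on few reads. As stated, Itgam is in the table only through IRI kidneys, so that its tests carry that selection.

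Itgam was also the only member called at day 1 after 20-minute IRI. The IRI kidneys had 0.232, 0.375 and 4.50 FPKM and the self-controls 0.0639, 0.0993 and 0.162 FPKM, without overlap (2.60, SE 0.69, adjusted p = 0.0441, limma). With the mouse as a block the adjusted p was 0.0792, and without replicate 3, the kidney at 4.50 FPKM, the difference was 2.06 (adjusted p = 0.0644, limma). The call was also lost without IRI replicate 1 or 4 or without any 1 of the 6 self-controls, with adjusted p up to 0.0917. At day 3 the 20-minute IRI kidneys had 0.333, 0.503 and 1.499 FPKM and the self-controls 0.0582, 0.153 and 0.340 FPKM, with some overlap (1.86, SE 0.43, adjusted p = 0.0114, limma).

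Itgam shares 3450 of its 4926 exon bases with Gm49368, a gene on the same strand, so that reads could be divided between them. In 40-minute IRI replicate 2 at day 1, the kidney with the lowest Itgam, Gm49368 had 2.13 FPKM, while the other 5 kidneys of that group were listed at 0. The sum of both genes ran from 4.20 to 12.1 FPKM in 40-minute IRI kidneys at day 1, against 0.165 to 0.729 FPKM in self-controls. The calls for Itgam against self-controls held for the sum in all 4 comparisons.

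Itgb2, the beta-2 chain (CD18) that pairs with Itgam, Itgal and Itgax, rose after 40-minute IRI at both days. At day 1 the IRI kidneys had 2.87, 4.47 and 6.53 FPKM and the self-controls 0.725, 1.82 and 2.94 FPKM, with a small overlap (1.46, SE 0.30, adjusted p = 0.00109, limma). At day 3 they had 4.12, 5.33 and 8.22 FPKM against 0.519, 0.799 and 1.19 FPKM, without overlap (2.83, SE 0.21, adjusted p = 1.75e-07, limma). After 20-minute IRI the differences were 0.90 at day 1 (adjusted p = 0.155, limma) and 0.94 at day 3 (adjusted p = 0.0579, limma). Itgb2 passed the call at day 1 without IRI replicate 6, the kidney with the least Havcr1 (1.17, adjusted p = 0.0281, limma), as did Itgal (1.07, adjusted p = 0.0401, limma), and at day 3 without self-control replicate 5 (1.15, adjusted p = 0.0195, limma).

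Of the other leukocyte subunits, 3 rose at day 3 after 40-minute IRI and none at day 1. Itgal, the alpha-L chain of the lymphocyte receptor LFA-1, had 0.596, 0.774 and 1.18 FPKM at day 3 against 0.218, 0.285 and 0.375 FPKM, without overlap (1.41, SE 0.21, adjusted p = 9.73e-05, limma). Itgax, the alpha-X chain (CD11c) of dendritic cells and macrophages, rose by 1.36 and Itgb7, a beta chain of gut-homing lymphocytes, rose by 1.21, both with overlapping groups. Itga4, the alpha chain that binds Vcam1, lay above all self-controls at day 3 (0.813, 0.920 and 1.15 against 0.364, 0.509 and 0.706 FPKM), but under a fold of 2 (0.90, adjusted p = 0.00223, limma). In all, 2 of 6 leukocyte subunits rose at day 1 and 5 of 6 at day 3, beside 15.7% and 15.3% of all genes. With 1 FPKM added in place of 0.01, the day 3 calls of Itgal (0.47), Itgax (0.56) and Itgb7 (0.50) were lost. The leukocyte subunits made up a median of 1.77% of all integrin FPKM in self-controls and 3.13% in IRI kidneys at day 1, and 1.04% and 5.62% at day 3.

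Leukocyte marker lists moved alongside. For these and the other marker lists, the shares over all genes after 40-minute IRI were 15.7% higher and 7.39% lower at day 1, and 15.3% and 5.98% at day 3. As for members, marker genes under 0.5 FPKM in all self-controls are in the table only through IRI kidneys. Counts that include such genes carry that selection. After 40-minute IRI, 5 of 6 pan-leukocyte markers rose at either day, and their summed level ran from 18.6 to 37.0 FPKM in self-controls and 36.7 to 110 FPKM in IRI kidneys at day 1, and from 17.9 to 28.7 and 66.0 to 118 FPKM at day 3. Macrophage markers rose for 8 of 12 at day 1 (49.9 to 109 FPKM in self-controls, 120 to 648 in IRI) and 11 of 12 at day 3 (37.7 to 60.0 and 285 to 698 FPKM). Neutrophil markers rose for 7 of 7 tested at day 1 (3.12 to 15.5 and 20.0 to 55.6 FPKM) and 6 of 7 at day 3 (2.20 to 12.1 and 8.99 to 18.4 FPKM). Of defining genes, Ptprc (CD45) was listed at 0 in 15 of 48 libraries and Trem2 in 19, and Ly6g had no value. The smallest adjusted p at day 3 within each list belonged to the macrophage scavenger receptor gene Msr1 (6.51), the pan-leukocyte gene Laptm5 (2.58) and the neutrophil decoy receptor gene Il1r2 (5.31). They were followed by Cd14 (3.04), Coro1a (2.21) and Csf3r (1.85). Lymphocyte markers moved both ways (1 higher and 2 lower of 8 at day 1, 2 higher and 1 lower at day 3), and of 3 dendritic cell markers 2 fell at day 1 and 1 at day 3. The part of these cells in the change of the leukocyte subunits was not tested.

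**Figure D2:**
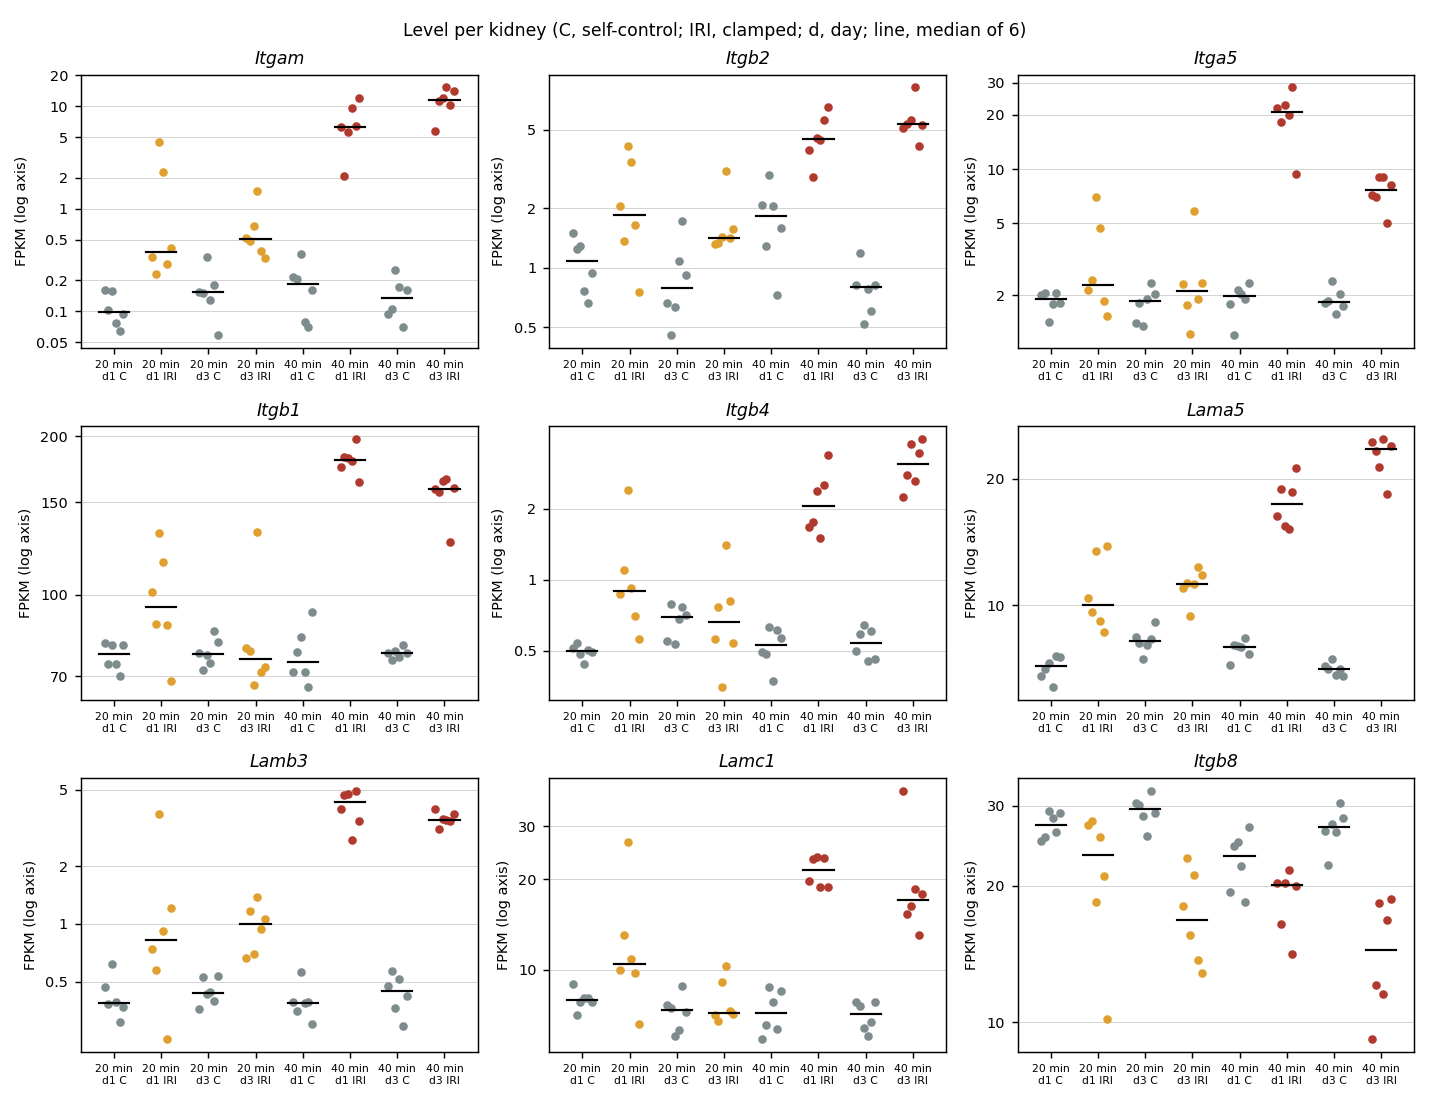
FPKM (log axis) of Itgam, Itgb2, Itga5, Itgb1, Itgb4, Lama5, Lamb3, Lamc1 and Itgb8 in each of 6 kidneys in the 8 groups, with a line at the median. Grey points are self-controls, yellow points 20-minute IRI and red points 40-minute IRI. For Itgam, Itga5, Lamb3 and Lamc1 all red points lie above the self-controls of the same ischemia time and day, and for Itgb8 the red points at day 3 (9.18 to 18.7 FPKM) lie below theirs (22.2 to 30.5 FPKM).

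The platelet and beta-3 subunits moved apart from each other. Itgb3, which pairs with the platelet alpha-IIb chain or with alpha-v, had 1.59, 1.83 and 2.52 FPKM at day 1 after 40-minute IRI against 0.283, 0.342 and 0.410 FPKM, without overlap (2.41, SE 0.17, adjusted p = 1.73e-07, limma). On day 3 the rise was 2.60 (SE 0.22, adjusted p = 6.95e-07, limma). Itga2b, the platelet alpha-IIb chain itself, fell at day 1 from 0.674, 1.05 and 1.42 FPKM to 0.382, 0.424 and 0.767 FPKM, with overlap (-1.10, SE 0.24, adjusted p = 0.00152, limma). At day 3 its difference was -0.78 without overlap, under a fold of 2. Of 4 platelet markers tested, 2 rose at day 1 and 1 at day 3, with summed levels of 1.49 to 3.32 FPKM in self-controls and 8.36 to 38.8 FPKM in IRI at day 1, and 1.67 to 3.36 and 12.1 to 39.2 FPKM at day 3. Pf4, the platelet factor 4 gene, rose by 4.10 at day 1 and by 4.603 at day 3. Most of the mean summed level in 40-minute IRI kidneys was Pf4 alone at both days. Ppbp, another platelet chemokine gene, rose by 1.13 at day 1 and was not called at day 3 (0.42). Gp1bb (0.67 and 0.66) and Gp9 (0.02 and -0.67) were not called at either day. Gp9, a defining platelet gene, was listed at 0 in 15 libraries. The part of platelets in these changes was not tested.

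Among the receptors for fibronectin and related ligands, Itga5, the alpha chain of the classical fibronectin receptor, changed most. At day 1 after 40-minute IRI it had 9.44, 20.8 and 28.5 FPKM against 1.202, 1.97 and 2.34 FPKM in self-controls, without overlap (3.35, SE 0.24, adjusted p = 1.53e-07, limma). By day 3 it had 4.998, 7.67 and 9.04 FPKM against 1.59, 1.84 and 2.41 FPKM, also without overlap (1.96, SE 0.15, adjusted p = 2.95e-07, limma). After 20-minute IRI most kidneys lay near self-controls, at 1.54, 2.28 and 7.02 FPKM at day 1 (0.61, adjusted p = 0.26, limma) and 1.22, 2.11 and 5.90 FPKM at day 3 (0.34, adjusted p = 0.506, limma). Between day 1 and day 3 after 40-minute IRI, Itga5 fell without overlap (-1.36, SE 0.23, adjusted p = 0.00813, limma).

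Itga9, which binds tenascin-C and osteopontin, rose at day 1 after 40-minute IRI from 1.77, 2.13 and 3.74 FPKM to 6.03, 6.72 and 7.80 FPKM (1.56, SE 0.16, adjusted p = 4.36e-06, limma). Itgav, the alpha chain of vitronectin and latent TGF-beta receptors, had 13.97, 16.7 and 18.4 FPKM against 5.59, 7.74 and 13.1 FPKM, without overlap and just past a fold of 2 (1.01, SE 0.19, adjusted p = 0.000435, limma). That call was lost without any 1 of 6 libraries (self-control replicates 1, 4 and 5 and IRI replicates 2, 4 and 5, lowest 0.90), and after scaling (0.80). The Itgav sum includes a transcript of 463 bases, with a mean of 3.24 against 0.956 FPKM at day 1. The longest transcript (7054 bases) averaged 8.79 against 6.63 FPKM, and another long one (6788 bases) 2.84 against 0. At day 3, self-control replicate 3 of the 40-minute mice had 33.8 FPKM of Itgav, while the other 5 had at most 10.5 FPKM, and the difference was 0.35 (adjusted p = 0.32, limma).

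Of the other beta chains that pair with alpha-v, Itgb5, Itgb6 and Itgb8 did not rise, unlike Itgb3. Itgb5, which binds vitronectin, lay within 0.27 of self-controls on the log2 scale in all 4 comparisons. Itgb6, an epithelial chain that activates TGF-beta, fell at day 3 after 40-minute IRI from 30.1, 35.6 and 41.2 FPKM to 7.73, 15.1 and 35.1 FPKM, with overlap (-1.15, SE 0.28, adjusted p = 0.00383, limma), and without IRI replicate 1 it was under a fold of 2 (-0.94). Its self-controls also differed between the 40-minute and 20-minute mice at day 3, by 0.87 without overlap (adjusted p = 0.000334, limma).

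Itgb8, another TGF-beta activating chain, was lower without overlap at day 3 after both ischemia times, at 9.18, 14.4 and 18.7 FPKM against 22.2, 26.9 and 30.5 FPKM after 40 minutes (-0.94, SE 0.17, adjusted p = 0.000356, limma) and at 12.9, 16.8 and 23.0 FPKM against 25.8, 29.5 and 32.4 FPKM after 20 minutes (-0.79, SE 0.14, adjusted p = 0.00201, limma). Both were under a fold of 2, and the first was past it after scaling (-1.07) and without IRI replicate 3 or 6 (-1.02). Itga8, the nephronectin receptor chain of mesenchyme and mesangium, fell after 20-minute IRI at day 3 from 2.26, 5.05 and 6.66 FPKM to 1.48, 2.15 and 2.55 FPKM, with overlap (-1.17, SE 0.24, adjusted p = 0.00515, limma). After 40-minute IRI it differed by -0.14 at day 1 and -0.41 at day 3 and was not called. Of these 7 subunits 3 rose at day 1 after 40-minute IRI, and 1 rose and 1 fell at day 3.

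The laminin-binding subunits rose for 3 of 4 at day 1 after 40-minute IRI and for 2 of 4 at day 3. Itga3, the alpha chain of a receptor for laminins with alpha-3 or alpha-5 chains, went from 7.83, 8.56 and 11.2 FPKM to 25.6, 30.9 and 37.4 FPKM at day 1, without overlap (1.76, SE 0.12, adjusted p = 1.35e-07, limma). On day 3 the rise was 1.44 (SE 0.11, adjusted p = 2.03e-07, limma), again without overlap. Itgb4, the partner of Itga6 in hemidesmosomes, went from 0.374, 0.532 and 0.631 FPKM to 1.502, 2.07 and 3.38 FPKM at day 1 (2.003, SE 0.22, adjusted p = 7.05e-06, limma) and from 0.451, 0.543 and 0.643 to 2.25, 3.11 and 3.96 FPKM at day 3 (2.50, SE 0.17, adjusted p = 9.8e-08, limma). Neither day showed overlap. The main Itgb4 transcript of self-controls was lower after IRI (means of 0.112 against 0.481 FPKM at day 1 and 0.312 against 0.486 at day 3). Another had a mean of 1.44 FPKM at day 1 and 1.16 at day 3, against 0 in self-controls. No transcript but the main one averaged more than 0.0648 FPKM in any self-control group. Those others are thus in the table only through IRI kidneys. The rise of the sum came from them, so that these tests carry that selection.

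Itga6 itself was far more abundant and rose at day 1 from 12.5, 19.5 and 29.8 FPKM to 35.4, 56.2 and 62.4 FPKM (1.47, SE 0.22, adjusted p = 8.01e-05, limma). By day 3 it was higher without overlap but under a fold of 2 (0.92), and past it without self-control replicate 1 (1.01). Itga7, known as the laminin receptor chain of muscle, was the only one of these subunits whose IRI kidneys lay above all self-controls in each of the 4 comparisons, with differences of 0.73 to 0.78 that stayed under a fold of 2. For Itgb4 after 20-minute IRI at day 1, the difference of 0.96 (adjusted p = 0.0715, limma) reached the call without replicate 6 (1.11, adjusted p = 0.0205, limma).

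Itgb1, the most abundant member, rose at day 1 after 40-minute IRI from 66.7, 74.5 and 92.9 FPKM to 164, 181 and 198 FPKM, without overlap (1.23, SE 0.08, adjusted p = 7.56e-08, limma). By day 3 it had 126, 159 and 166 FPKM against 75.1, 77.5 and 80.4 FPKM, without overlap and with a fold of 1.99, just short of the call (SE 0.06, adjusted p = 4.69e-08, limma). Without IRI replicate 5 or self-control replicate 5 the fold passed 2.

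Of the collagen-binding subunits with values, 1 of 3 rose at either day. Itga2 had 0.568, 0.782 and 1.42 FPKM at day 1 after 40-minute IRI against 0.0629, 0.0976 and 0.211 FPKM (2.95, SE 0.33, adjusted p = 8.13e-06, limma) and 0.477, 0.780 and 1.18 FPKM at day 3 against 0.0760, 0.0912 and 0.162 FPKM (2.91, SE 0.28, adjusted p = 1.76e-06, limma). The groups did not overlap, but as stated its presence in the table required a high IRI kidney. Itga1, of capillary and mesangial collagen receptors, differed by 0.04 at day 1 and by 0.51 at day 3, the latter without overlap. Itga10, a cartilage collagen receptor chain, stayed under 0.57 FPKM and was not called, and 34.5% of its exon bases are shared with Gm42957 on the same strand.

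Of 11 laminin chains, 6 rose at day 1 after 40-minute IRI, among them Lama2, Lama4, Lama5, Lamb3 and Lamc1, and 5 rose at day 3, when Lamc3 fell. Lama5, the most widespread alpha chain of adult basement membranes, had 15.2, 17.5 and 21.2 FPKM at day 1 against 7.20, 7.98 and 8.35 FPKM, without overlap (1.15, SE 0.09, adjusted p = 3.5e-07, limma). At day 3 it had 18.5, 23.6 and 24.9 FPKM against 6.79, 7.06 and 7.47 FPKM (1.68, SE 0.07, adjusted p = 3e-09, limma), the smallest adjusted p of any member. After scaling, the day 1 difference was 0.95, under a fold of 2. After 20-minute IRI Lama5 was also above all self-controls, at 8.63, 10.1 and 13.8 against 6.39, 7.19 and 7.56 FPKM at day 1 (0.59, adjusted p = 0.0202, limma) and at 9.44, 11.3 and 12.3 against 7.46, 8.25 and 9.13 FPKM at day 3 (0.43, adjusted p = 0.00286, limma). Both were under a fold of 2.

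Lamb3, the beta chain of laminin-332, the epithelial anchoring laminin, rose at both days after 40-minute IRI. It went from 0.302, 0.389 and 0.562 FPKM to 2.72, 4.33 and 4.93 FPKM at day 1 (3.32, SE 0.20, adjusted p = 3.25e-08, limma) and from 0.294, 0.448 and 0.566 to 3.10, 3.48 and 3.98 FPKM at day 3 (3.01, SE 0.16, adjusted p = 1.64e-08, limma), without overlap. Of its 2 transcripts, 1 had a mean of 4.03 FPKM in IRI kidneys against 0.0104 at day 1, and 3.26 against 0 at day 3. The other was lower (0.048 against 0.387, and 0.269 against 0.440). The first is in the table only through IRI kidneys, so that these tests of the sum carry that selection. After 20-minute IRI Lamb3 rose at day 3, with 0.665, 0.998 and 1.37 FPKM against 0.362, 0.434 and 0.534 FPKM (1.08, SE 0.22, adjusted p = 0.00538, limma), and without IRI replicate 4 the difference was 0.97, under a fold of 2. Lama3, the alpha chain of laminin-332, was not called in any of the 4 comparisons as a sum over its transcripts. Its differences were -0.24 and -0.21 after 40-minute IRI, and after 20-minute IRI at day 3 it was lower without overlap (-0.67, adjusted p = 0.00759, limma), under a fold of 2.

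The markers of urothelium, an epithelium that could be carried over into cortex samples, differed in part between the groups. Of 6 such genes 2 rose at day 1 and 3 at day 3 after 40-minute IRI, and their summed level was 0.184 to 2.72 FPKM in self-controls and 1.80 to 9.28 FPKM in IRI at day 1, and 0.214 to 2.84 and 0.912 to 11.9 FPKM at day 3. After 20-minute IRI the sum ran from 0.488 to 26.6 FPKM at day 1 against 0.824 to 2.298 FPKM in self-controls. The genes called at both days were the basal keratins Krt14 (6.05 and 4.52) and Krt5 (5.81 and 4.499), and Upk1b was called at day 3 alone. The urothelial uroplakins Upk2 and Upk3a were not called and were listed at 0 in 16 and 15 of 48 libraries, and Krt14 in 23. All 6 injured tubule markers rose at both days, Sox9 by 5.02 and 4.92, Krt20 by 11.85 at day 1 and Lcn2 by 7.204 at day 3, with summed levels of 85.2 to 148 FPKM in self-controls and 1276 to 3053 FPKM in IRI at day 1. Of 8 proximal tubule markers 7 fell at day 1 (3225 to 3578 FPKM in self-controls, 986 to 1806 in IRI) and 5 at day 3, among them Slc34a1 (-1.81 and -1.49), Lrp2 (-1.76 at day 1) and Aqp1 (-1.502 at day 3), and of 6 loop, distal tubule and collecting duct markers 2 fell at day 1 and 3 at day 3. Krt20 had at most 0.363 FPKM in any self-control. Krt14 averaged at most 0.0793 FPKM in each self-control group, too little for a kidney at 0.5 FPKM. Both genes are thus in the table only through IRI kidneys, and their tests carry that selection. The part of these cell types in the change of Lamb3 or Itgb4 was not tested.

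Lamc1, the gamma chain of most laminins, rose at day 1 from 5.87, 7.15 and 8.75 FPKM to 18.8, 21.5 and 23.7 FPKM (1.55, SE 0.12, adjusted p = 2.43e-07, limma) and at day 3 by 1.41 (adjusted p = 0.000104, limma), without overlap. In the day 3 group, replicate 1 had 39.4 FPKM and the other 5 had 13.0 to 18.6 FPKM. Lama2, the alpha chain of muscle and mesenchymal basement membrane, rose by 1.57 at day 1 (adjusted p = 9.83e-05, limma) and, with overlapping groups, by 1.36 at day 3 (adjusted p = 0.00242, limma). Its long transcript (9614 bases) averaged 2.84 against 1.41 FPKM at day 1 and 2.16 against 1.48 at day 3. Its short transcript (3383 bases) averaged 1.54 against 0.135 FPKM at day 1 and 2.32 against 0.0822 at day 3. Lama4, of vessel basement membrane, rose at day 1 by 1.10 (adjusted p = 0.00048, limma), a call that was lost after scaling (0.90) and without self-control replicate 5 (fold just under 2). It was not called at day 3 (0.28).

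Fibroblast and pericyte markers rose for 6 of 8 at day 1 after 40-minute IRI (38.3 to 76.1 FPKM in self-controls, 108 to 587 in IRI) and for 8 of 8 at day 3 (49.3 to 55.7 and 216 to 466 FPKM), led by Postn (4.66 and 5.55) and Col1a1 (3.22 and 4.36). Of 6 smooth muscle and mesangial markers, 3 rose at day 1 (117 to 261 and 306 to 673 FPKM), and 3 rose and 1 fell at day 3. Endothelial markers rose for 1 of 8 at day 1 and none at day 3, where limma called none in either direction and Tek, an angiopoietin receptor gene, had the lowest adjusted p (-0.997, adjusted p = 0.000155). Podocyte markers, which mark the glomerular filter, were not called at day 1, and 1 of 6 fell at day 3. Nphs1, the nephrin gene, differed by -0.93 at day 1 and by -0.71 at day 3, under a fold of 2. The part of these cells in the change of Lama2, Lama4 or Lamc1 was not tested.

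Lamc3, a minor gamma chain, fell at day 3 after 40-minute IRI from 1.14, 1.52 and 2.13 FPKM to 0.474, 0.613 and 1.16 FPKM, with overlap (-1.14, SE 0.23, adjusted p = 0.000808, limma). At day 1 its difference was -0.997, with a fold just under 2 (adjusted p = 0.00812, limma), and it passed the call without IRI replicate 6 (-1.24), without IRI replicate 1 or self-control replicate 4 or 5 (-1.01 to -1.08) and after scaling (-1.2016). Lama1, an alpha chain of proximal tubule basement membrane, differed by -0.44 and -0.39, and Lamb1 and Lamb2, the beta chains of most laminins, by 0.44 to 0.60, all under a fold of 2.

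The composition of the laminin chains shifted accordingly. Among alpha chains, Lama5 made up a median of 47.3% of the FPKM in self-controls and 60.1% in IRI kidneys at day 1 after 40 minutes, and 44.1% and 67.2% at day 3. After 20 minutes it went from 41.4% to 51.1% at day 1 and from 45.9% to 64.4% at day 3. The day 3 ranges did not overlap after either ischemia time. Those at day 1 after 40 minutes did not overlap either (41.3% to 53.3% in self-controls and 53.6% to 65.1% in IRI). Lama1 went from 15.8% to 6.35% and Lama3 from 21.3% to 9.39% at day 1 after 40 minutes. Lamb3 went from 1.10% to 7.79% of the beta chains. These shares were described and not tested.

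**Figure D3:**
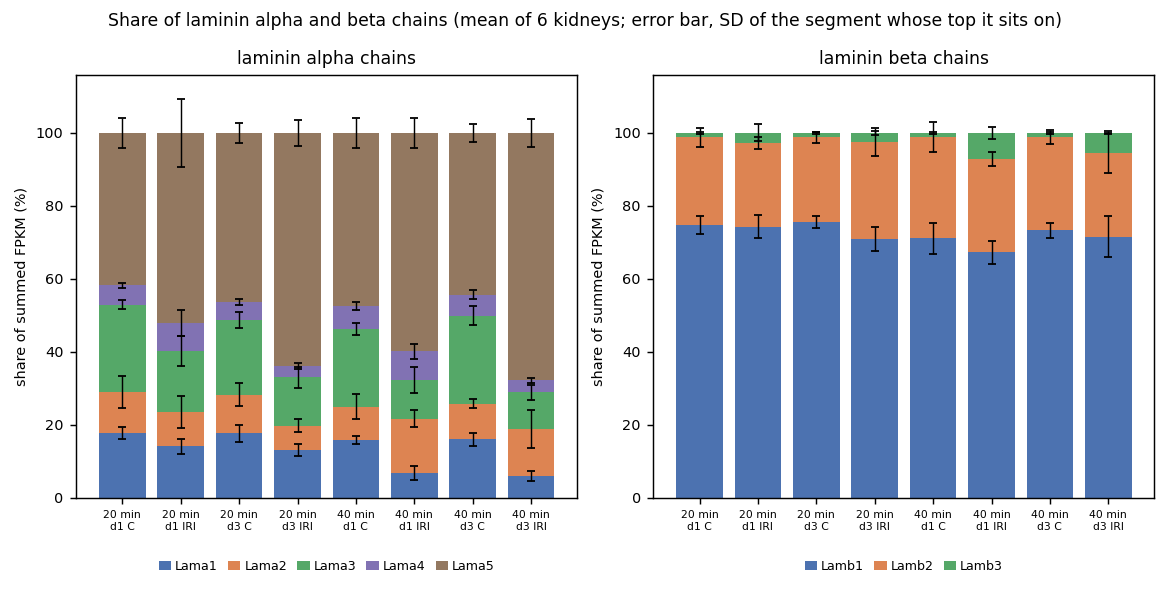
Mean share (percent of FPKM, with the SD over 6 kidneys) of each alpha and each beta chain of laminin in the 8 groups, as stacked bars from 0 to 100. In 40-minute IRI kidneys the bars of Lama5 and Lamb3 take more and those of Lama1 and Lama3 less than in self-controls.

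Transcript levels split several of these genes. Of the members' 69 transcripts, 22 rose and 3 fell at day 1 after 40-minute IRI, beside 10.3% and 5.08% of all transcripts, and 20 rose and 2 fell of 68 tested at day 3, beside 9.56% and 4.28%. After 20-minute IRI none of 64 was called at day 1, and 1 rose and 1 fell at day 3, beside 0.856% and 1.02%. Under 0.5 FPKM in all self-controls were 13 of the 69, which are in the table only through IRI kidneys. Levels of transcripts of 1 gene are estimates from shared reads, and a level listed at 0 can be a failed estimate.

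For Lamb3 the transcript that was high after IRI started 94268 bases downstream of the other transcript in the table. The promoter of this downstream transcript is shown because its level changed (chr1:193301744-193302043, plus strand, RefSeq, GRCm38.p6, with a start 1 base away), with GAGGAA in capitals.
Lamb3: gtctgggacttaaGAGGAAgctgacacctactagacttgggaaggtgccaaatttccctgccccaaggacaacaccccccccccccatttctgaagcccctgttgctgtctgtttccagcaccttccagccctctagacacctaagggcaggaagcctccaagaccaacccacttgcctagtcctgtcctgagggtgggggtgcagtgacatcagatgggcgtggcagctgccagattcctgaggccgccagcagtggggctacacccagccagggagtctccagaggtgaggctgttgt
It held 1 such core and no TGANTCA (the AP-1 site, on either strand found in 7.81% of all promoters and in 3 of 22 members).

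The downstream transcript of Lamb3 had 2.67, 4.32 and 4.93 FPKM at day 1 after 40-minute IRI, while the self-controls were listed at 0 up to 0.0624 FPKM. On day 3 it had 2.49, 3.32 and 3.71 FPKM and all self-controls were listed at 0. It is 1 of the 13 transcripts that are in the table only through IRI kidneys, so that these values are given as a description. The upstream transcript went the other way at day 1, from 0.302, 0.389 and 0.4998 FPKM to 0, 0.0316 and 0.176 FPKM, without overlap (-3.52, adjusted p = 0.00304, limma). After 20-minute IRI the downstream transcript had 0, 0.253 and 3.56 FPKM at day 1 and was not called, and at day 3 the upstream transcript rose (1.06, adjusted p = 0.0491, limma) while the downstream 1 had at most 0.186 FPKM. The difference between the ischemia times in these transcripts was not itself tested.

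Of the Itgb4 transcripts, a downstream transcript, which starts 3061 bases after the main transcript of self-controls, was listed at 0 in all self-controls of the 40-minute mice. It had 0.490, 1.56 and 2.33 FPKM in IRI kidneys at day 1 and 0.771, 0.962 and 2.17 FPKM at day 3, and it too is in the table only through IRI kidneys. A further Itgb4 transcript starts only 254 bases after the main one. Its mean after 40-minute IRI was 0.346 FPKM at day 1 and 1.22 at day 3, against 0.0113 and 0.0012 in self-controls. The transcripts that were high after IRI were thus not all far downstream. The main transcript of self-controls, upstream of both, fell at day 1 from 0.260, 0.515 and 0.5999 FPKM to 0, 0.0129 and 0.632 FPKM, with overlap (-3.94, adjusted p = 0.00674, limma). For Itga3, the upstream transcript rose at day 1 from 2.79, 7.80 and 8.99 FPKM to 8.87, 23.8 and 31.9 FPKM (1.70, adjusted p = 0.00224, limma), with a small overlap. The Itga3 transcript that starts 7516 bases downstream varied from 0.546 to 23.1 FPKM among IRI kidneys at day 1 and was not called (1.78, adjusted p = 0.203, limma). At day 3 it had 0.967, 11.3 and 26.2 FPKM against 0.307, 1.117 and 4.11 FPKM, with overlap, and was not called (2.42, adjusted p = 0.0673, limma).

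Lama3 had a transcript that starts 170380 bases downstream of its main transcript. After 40-minute IRI this downstream transcript had 0, 0.0937 and 4.704 FPKM at day 1 against 0, 0.00377 and 0.0646 FPKM (2.45, adjusted p = 0.217, limma), and 0, 0.265 and 2.68 FPKM at day 3 against 0, 0.0062 and 1.31 FPKM (2.52, adjusted p = 0.335, limma). The groups overlapped and neither difference was called. The upstream transcript had 0.430, 2.52 and 3.24 FPKM at day 1 against 2.86, 3.55 and 4.17 FPKM (-0.86, adjusted p = 0.156, limma), and at day 3 its difference was -0.55 (adjusted p = 0.0445, limma), under a fold of 2.

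**Figure D4:**
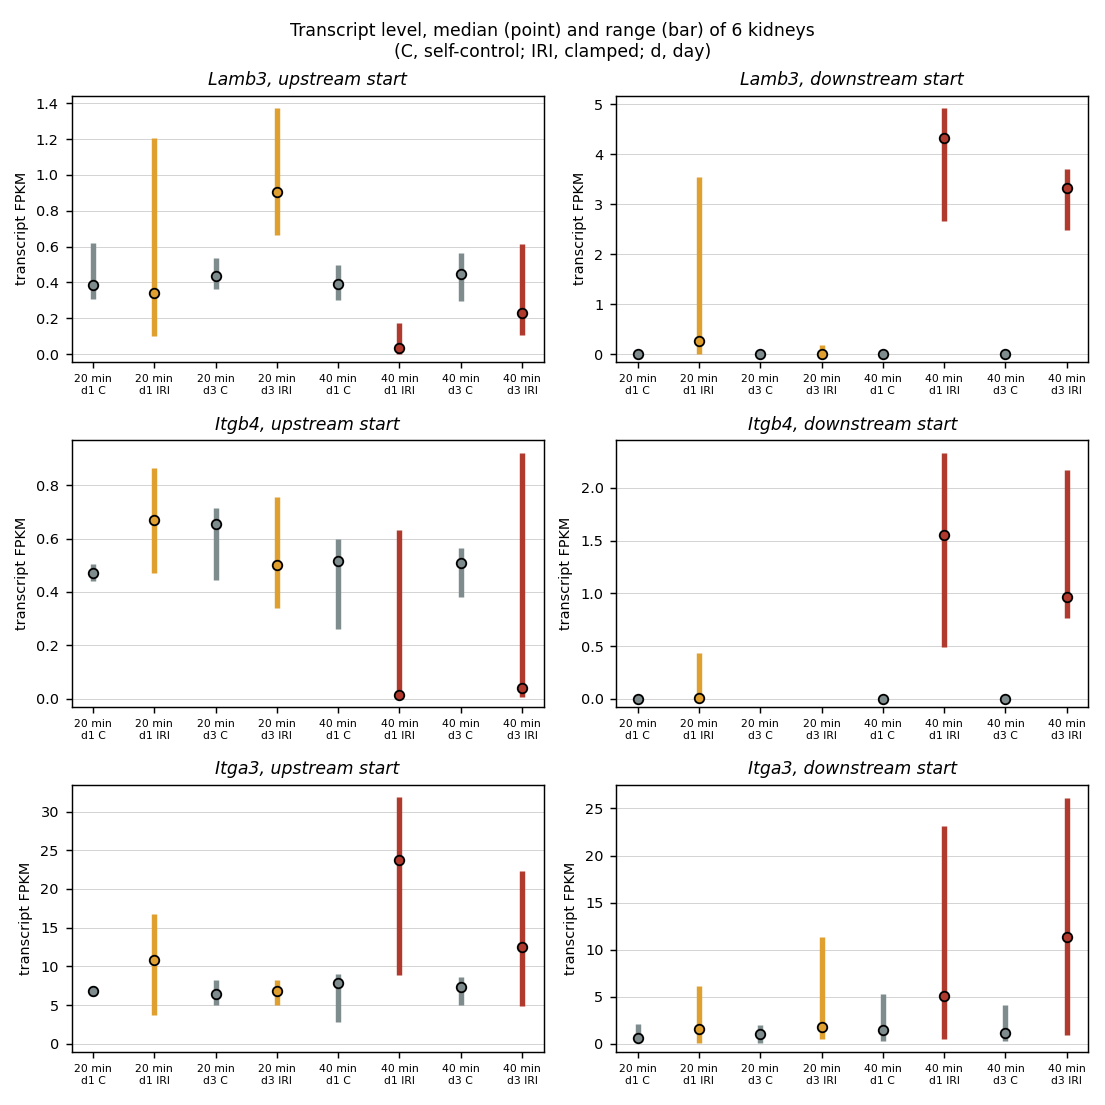
Median (point) and range (bar) of the FPKM of an upstream and a downstream transcript of Lamb3, Itgb4 and Itga3 in groups of 6 kidneys. Further transcripts of Itgb4 and Itga3 are not shown. The downstream Lamb3 transcript lies at or near 0 in all self-controls and at 2.67 to 4.93 FPKM in 40-minute IRI kidneys at day 1, and that of Itgb4, not tested at day 3 after 20 minutes, has no points there.

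Kidneys after 40-minute IRI were compared directly with 20-minute IRI kidneys. These comparisons share the IRI kidneys with those above. At day 1, 12 of 34 members were called higher and 1 lower after 40 minutes, beside 7.82% and 5.88% of all genes, and without 20-minute IRI replicate 6 the called members were 8. After scaling, the calls over all genes went from 1116 higher and 839 lower to 934 and 1005. At day 3, 15 members were higher and none lower, beside 9.82% and 2.32%. Itgam differed by 3.15 at day 1 (adjusted p = 0.00462, limma) and 4.24 at day 3 (adjusted p = 2.25e-05, limma), and Itga5 by 2.75 (adjusted p = 0.000228, limma) and 1.71 (adjusted p = 0.00146, limma). As stated, Itgam is in the table only through IRI kidneys. Without 20-minute IRI replicate 6, Itga6, Itga9, Itgb2, Itgb4 and Lama2 were under a fold of 2 at day 1 (0.77 to 0.96). Itga2b (-1.01) and Itga9 (1.17) were the calls lost most often at day 1 when a single kidney was left out (7 of 12 each). At day 3, leaving out 20-minute IRI replicate 4 brought the called members from 15 to 19, with Itga4, Itgal, Itgav and Itgb1 added, and leaving out replicate 3 lost Lama4 and Lama5.

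The difference between the fold changes of the 2 ischemia times was tested directly. At day 1, 13 of 34 members had a larger log2 change after 40 minutes and 2 a smaller one, beside 18.5% and 11.3% of all genes, and at day 3, 19 and 1, beside 20.4% and 8.99%. After scaling the counts over all genes were 1998 higher and 2022 lower at day 1, and 2225 and 1802 at day 3. The largest differences at day 1 were for Itga5 (2.74, adjusted p = 5.72e-05, limma), Itgam (2.60, adjusted p = 0.0256, limma) and Lamb3 (2.26, adjusted p = 0.00346, limma). For Itgam with Gm49368 the value was 1.65 (adjusted p = 0.0507, limma). At day 3 they were for Itgam (4.42, adjusted p = 4.35e-06, limma), Itga2 (3.72, adjusted p = 0.000493, limma) and Itgb4 (2.48, adjusted p = 1.39e-05, limma). Itgam and Itga2 are in the table only through IRI kidneys, and so are the transcripts of Itgb4 and Lamb3 other than the main ones of self-controls. Their place among the largest differences carries that selection. The smallest adjusted p at day 3 was that of Lama5 (1.24, adjusted p = 5.73e-08, limma). For Itga7 the difference was -0.01 at day 1 (SE 0.20) and -0.01 at day 3 (SE 0.16).

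From day 1 to day 3, members of 40-minute IRI kidneys moved little. Itga5 and Lama4 were called lower (2 of 34, beside 1.63% of all genes) and none higher (3.31% of all genes), where limma gave an unadjusted p under 0.05 for 14 and for 37.28% of all genes. Lama4 went from 1.64, 2.16 and 3.06 FPKM to 0.688, 1.17 and 1.46 FPKM, without overlap (-1.001, SE 0.22, adjusted p = 0.01, limma), a call lost without IRI replicate 3, 4 or 5 of day 1 or 1 or 5 of day 3 (-0.87 to -0.99). Without IRI replicate 6 of day 1, Itgam (1.03) and Itgb7 (1.01) were also called higher at day 3. In 20-minute IRI kidneys no member was called, nor was any gene (0% of 14271), and limma gave an unadjusted p under 0.05 for 4 members and for 12.93% of all genes. Without IRI replicate 6 of day 1, Itga9 (-1.36) and Lama4 (-1.84) were called lower at day 3. Self-controls of 40-minute and 20-minute mice showed no called member at day 1 (0.226% of all genes higher and 0.226% lower) or at day 3 (0.495% and 0.424%), with an unadjusted p under 0.05 from limma for 7 members on each day, beside 18.17% of all genes at day 1 and 21.52% at day 3.

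Genes that work with these subunits were counted from fixed lists. Of 18 integrin activators and adhesion linkers, 8 rose at day 1 after 40-minute IRI, and 4 rose and 1 fell at day 3, with median differences of 0.95 and 0.53. Beside them, 15.7% of all genes rose and 7.39% fell at day 1, and 15.3% and 5.98% at day 3. Vcl, which encodes the adhesion linker vinculin, rose by 1.28 (SE 0.08, adjusted p = 7.6e-08, limma) and Lims1, an ILK partner, by 1.25 (SE 0.10, adjusted p = 5.45e-07, limma) at day 1. At day 3 the smallest adjusted p among linkers was that of Zyx, the zyxin gene (1.30, SE 0.08, adjusted p = 3.24e-08, limma), and Bcar1, the scaffold gene of p130Cas, followed under a fold of 2 (0.79, adjusted p = 2.4e-07, limma). Fermt3, the kindlin of blood cells, rose by 1.95 and 2.74, and Tln2, a talin, fell at day 3 (-1.33, SE 0.11, adjusted p = 5.85e-07, limma). None of the 18 was called after 20-minute IRI, beside 1.19% of all genes that rose at day 1 and 2.34% at day 3.

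Of 12 basement membrane partners of laminin, 5 rose and 2 fell at day 1 after 40-minute IRI, beside 15.7% and 7.39% of all genes. At day 3, 5 rose, beside 15.3% of all genes. Nid1, the nidogen that links laminin to collagen IV, rose by 2.09 at day 1 (SE 0.11, adjusted p = 1.77e-08, limma) and by 1.74 at day 3 (SE 0.19, adjusted p = 6.17e-06, limma). Col4a2, of the ubiquitous collagen IV network, rose by 1.93 (SE 0.11, adjusted p = 2.6e-08, limma) and 1.57 (SE 0.16, adjusted p = 2.66e-06, limma), whereas Col4a3 (-1.202) and Col4a4 (-1.24), of the glomerular network, fell at day 1. At day 3 the smallest adjusted p was that of Col4a4, under a fold of 2 (-0.74, SE 0.07, adjusted p = 1.22e-06, limma). None was called after 20-minute IRI, beside 1.19% of all genes that rose at day 1 and 2.34% at day 3.

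Of 17 integrin ligands and counter-receptors with values, 10 rose at day 1 after 40-minute IRI, beside 15.7% of all genes. At day 3, 9 rose and 1 fell, beside 15.3% and 5.98% of all genes. Spp1, the osteopontin gene, had the smallest adjusted p at day 1 (3.06, SE 0.14, adjusted p = 3.46e-09, limma), followed by Tnc, the tenascin-C gene (4.48, SE 0.25, adjusted p = 2.51e-08, limma). Lgals3, the galectin-3 gene, had the smallest at day 3 (2.43, SE 0.11, adjusted p = 2.74e-09, limma), with Spp1 next (2.54, adjusted p = 1.02e-08, limma). Fn1, the fibronectin ligand of Itga5, rose by 1.81 and 2.65, and Vcam1, the ligand of Itga4, by 1.87 and 2.78. Icam1, the endothelial and epithelial ligand of beta-2 integrins, rose after 20-minute IRI too, by 1.28 at day 1 and 1.17 at day 3, as did Lgals3 (1.52 and 1.31) and, at day 3, Spp1 (1.63). These values are with all kidneys, and the summed level of the list was uneven among them. It had 747, 1613 and 6966 FPKM (lowest, median and highest) in 20-minute IRI kidneys at day 3.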

How the data were processed

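RNA enriched for mRNA from 48 pieces of mouse renal cortex was sequenced as read pairs. Per the labels and methods, the authors used FastQC 0.11.7 to check reads and HISAT2 2.1.0 to map them on GRCm38, then estimated transcript levels with Ballgown. The deposited values are FPKM per transcript, which summed to 381308 to 421059 in each library (median 400691), and no transcript that stayed under 0.5 FPKM in all libraries is in the table. Integer read counts were not used here. Depth was estimated from the steps between low values, and the precision of low levels is limited accordingly.

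Of 33953 transcripts, 33871 matched the GENCODE M21 annotation and were summed by symbol. Genes whose mean over the compared libraries reached 0.01 FPKM were tested with limma 3.58.1 in R 4.3.3 (empirical Bayes with a trend) on log2(FPKM + 0.01), with Benjamini-Hochberg adjustment over all genes tested. A change was called at a fold of at least 2 together with an adjusted p under 0.05. Fold changes that differed between ischemia times were called on the adjusted p alone. The procedure was tested on simulated data. Tables and figures were made with Python 3.11.15, numpy 2.4.6, pandas 2.3.3 and matplotlib 3.10.9.

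The members and gene lists were chosen with earlier results of these data known. In each comparison of IRI with self-controls, the members to be named were the 3 with the largest change and the 3 with the smallest adjusted p among called members without overlap whose higher group averaged 1 FPKM or more. From each list of partners or markers the 2 genes with the smallest adjusted p after 40 minutes were taken, and other names were chosen after their values were seen. The values of 1 member and 1 marker gene are not reported here, although both are included in the counts.

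Left and right kidneys with the same replicate number come from the same mouse. Deviations from the group means correlated within mice with medians of 0.0025 and 0.0940 at day 1 and 0.0536 and 0.0019 at day 3 (20 and 40 minutes), and the closest self-control was the kidney of the same mouse in 2, 4, 2 and 1 of 6 mice for 20 and 40 minutes at day 1 and then at day 3. Alternatives were a pseudocount of 1 FPKM, no filter on low values, libraries scaled to an equal median over genes with at least 1 FPKM, the mouse as a block, and leaving out each library. The levels of single transcripts and the sum of Itgam and Gm49368 were chosen as alternatives after seeing the data. Promoter sequences are from RefSeq (GRCm38.p6), where 22 of 34 members had an entry.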

Additional observations from a re-analysis of the deposited data

Results flagged for a closer look

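In 25 of 272 groups of 6 kidneys (9.19%), the highest or lowest kidney lay far from the other 5 of its group in a member's FPKM, where chance gives about 1 in 20. Many were the same few kidneys. Among 20-minute IRI kidneys at day 1, replicate 6 stood apart with 9.35 FPKM of Itga1, 0.758 of Itga9, 11.4 of Itgb6 and 0.226 of Lama4, and replicate 5 with 4.93 FPKM of Lama3. Among 20-minute IRI kidneys at day 3, replicate 4 stood apart with 0.718 FPKM of Itga4, 48.5 of Itga6, 1.68 of Itgal, 2.46 of Itgax, 131.5 of Itgb1 and 3.09 of Itgb2.

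Among 40-minute IRI kidneys at day 1, replicate 6 stood apart with 21.7 FPKM of Itga1, 35.4 of Itga6 and 1.885 of Lamc3, and replicate 2 with 0.767 FPKM of Itga2b. At day 3, replicate 5 stood apart with 0.5096 FPKM of Itga8 and 125.9 of Itgb1, and replicate 1 with 39.4 FPKM of Lamc1. Of the self-controls, replicate 3 of the 40-minute mice at day 3 had 1.92 FPKM of Itga8, 2.01 of Itga9 and 33.8 of Itgav, and replicate 3 of the 20-minute mice had 1.43 FPKM of Itga5 and 0.2297 of Itgb7 at day 1 and 2.26 of Itga8 at day 3. Replicate 6 of the 20-minute mice at day 1 had 27.4 FPKM of Itgb5.

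The log2 change from self-control to IRI differed between the ischemia times for 15 members at day 1 (limma, difference of fold changes, 40 minus 20 minutes). Among them, the day 1 difference was 2.74 for Itga5, 2.60 for Itgam, 2.26 for Lamb3, 2.205 for Itga2, 1.76 for Itgb3, 1.65 for Lama2, 1.17 for Itga3, 1.08 for Itga6, 1.0455 for Itgb4, 1.01 for Lamc1, 0.89 for Itgb1 and 0.56 for Lama5. It was below 0 for Itga2b (-1.15) and Lamc3 (-1.02). The Lamc3 difference lost its call in 19 of 24 fits that each left out a kidney, and that of Itgb4 in 11 of 24.

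At day 3 the changes differed for 20 members. Among them, the difference was 4.42 for Itgam, 3.72 for Itga2, 2.48 for Itgb4, 2.03 for Lama2, 1.93 for Lamb3, 1.89 for Itgb2, 1.82 for Itgb3, 1.63 for Itga5 and 1.29 for Lamc1. Further differences were 1.26 for Itgal, 1.24 for Itga9, 1.24 for Lama5, 1.0994 for Itga4, 1.06 for Itga3, 1.04 for Lama4, 0.93 for Itgb1, 0.81 for Itga1 and 0.595 for Lamb1. For Itgb6 it was -1.17. The differences of Itgal and Itgb6 lost their call in 19 and 16 of 24 fits that each left out a kidney.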

How the results depend on the processing

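No member changed direction while called under any alternative run. With no filter on low values, all 408 results of the members stayed on their side of the threshold. With a pseudocount of 1 FPKM, 29 calls were lost and 1 was gained, and the called members went from 1 to 0 at day 1 and from 3 to 0 at day 3 after 20-minute IRI, from 17 to 11 at day 3 after 40-minute IRI, from 13 to 6 at day 1 and from 15 to 9 at day 3 between 40-minute and 20-minute IRI kidneys, and from 2 to 1 between days after 40-minute IRI. A larger pseudocount shrinks the change of low genes by construction. With libraries scaled to an equal median, 9 calls were lost and 2 gained, and the called members between days after 40-minute IRI went from 2 to 1.

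With the replicate block of the mouse, the called members at day 1 after 20-minute IRI went from 1 to 0, as Itgam had an adjusted p of 0.0792 (limma), and the block changed no other call. With the FPKM of each transcript that count was also 0. With Itgam and Gm49368 added together, 1 result lost its call, the difference of fold changes of Itgam at day 1. The cause of these losses was not tested.

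Leaving out 1 library at a time lost 118 calls and gained 45, while 5549 results were as before. The called members ranged from 0 to 5 at day 1 after 20-minute IRI (5 without IRI replicate 6, 0 without IRI replicate 1, 3 or 4 or without self-control replicate 1, 2, 3, 4 or 5), from 17 to 19 at day 1 after 40-minute IRI, from 2 to 4 at day 3 after 20-minute IRI and from 16 to 18 at day 3 after 40-minute IRI. Between 40-minute and 20-minute IRI kidneys they ranged from 8 to 13 at day 1 (8 without 20-minute IRI replicate 6) and from 13 to 19 at day 3. Between days they ranged from 0 to 2 after 20-minute IRI (2 without day 1 replicate 6) and from 1 to 4 after 40-minute IRI (4 without day 1 replicate 6, 1 without day 1 replicate 3, 4 or 5 or day 3 replicate 5). For the difference of fold changes they ranged from 13 to 16 at day 1 and from 18 to 21 at day 3, and for self-controls from 0 to 0. Few reads limit the lowest levels, since the median of Itgam in self-controls was worth an estimated 5.8 to 9.7 read pairs.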
